A study of Rattus norvegicus with 62 samples.

Results

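Slbp, Larp4b, Tma7, Cav2, Scd2, Rap2c, Bex3, Nudcd2 and Tmem255a are 9 rat genes with a probe set that was brighter in the brainstem of rats given levetiracetam than in control rats. They were chosen for that difference. All 21 probe sets that the array annotation assigns to one of these symbols alone were followed, out of 31042 probe sets and 14218 genes with a single symbol. In each gene the probe set with the largest levetiracetam minus control difference in brainstem is called its rising probe set, which gives 9 rising and 12 other probe sets.

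Male Wistar rats received phenytoin at 75 mg/kg, levetiracetam at 150 mg/kg or a control solution by gastric tube, 2 times a day for 90 days. RNA of brainstem, hippocampus and frontal cortex was hybridised to 1-colour oligonucleotide arrays, with 1 array for each rat and region. The 9 groups are phenytoin, levetiracetam and control in each of the 3 regions, with 7 arrays a group and 6 for control frontal cortex. That makes 62 arrays. Phenytoin blocks voltage-gated sodium channels and levetiracetam binds the synaptic vesicle protein SV2A; both are used against epilepsy. The rats carry no transgene in the labels, and no seizure model is named. For the levetiracetam brainstem arrays of rats 1 and 2 the labels name both drugs. They were kept with levetiracetam, as their titles have it. Rats of a group have separate numbers, but the labels do not say whether the 3 regions of a treatment came from the same rats, and p-values measure the spread between these arrays only. The frontal cortex arrays carry sample titles of another style, so region and array set cannot be told apart.

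The genes have different jobs. Slbp encodes the protein that binds the stem-loop at the end of histone messages and directs their processing and translation. Larp4b encodes a La-related protein that binds messages together with the poly(A)-binding protein, and Tma7 a small protein associated with the translation machinery. Cav2 is a caveolin of plasma membrane invaginations, and Scd2 is a stearoyl-CoA desaturase that makes monounsaturated fatty acids and is abundant in rodent brain. Rap2c is a small GTPase of the Ras family. Bex3 binds the p75 neurotrophin receptor. Nudcd2 is a co-chaperone of the NudC family, which helps to keep dynein regulators folded. Tmem255a encodes a membrane protein whose role is less well described.

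Because the genes were chosen for moving together in 1 comparison, the 250 bases before each gene's start were searched for a small set of promoter motifs on both strands, in the RefSeq promoter table of rat build GRCr8. All 9 genes matched. CCAAT, the core of the NF-Y motif, was present in 6 of the 9 windows (Bex3, Tma7, Tmem255a, Scd2, Larp4b and Nudcd2), against 34.6% of the 13193 windows of genes on the array and 34% of the 33469 windows in the table. GGGCGG, the GC box, was present in 5 (Slbp, Bex3, Tma7, Cav2 and Rap2c), against 52.4% of array genes and 30.5% of the table. CACGTG (E-box) was found in 1 window, that of Bex3, against 7.59% of array genes and 5.59% of the table. CCGGAAGT (ETS) was found in Larp4b alone, against 5.31% and 3.1%. TTTGGCGC (E2F) was found in Larp4b, against 0.622% and 0.412%, and TTTCCCGC (E2F, second form) in Slbp, against 1.46% and 0.813%. TGACGTCA (CRE), TATAAA (a core promoter box), TCACNCCAC (sterol response element), GCCATNTTG (YY1) and the NRF1 motif were found in 0 of the 9. They were found in 2.5%, 8.04%, 0.947%, 1.96% and 1.38% of the windows of array genes and in 1.59%, 12.9%, 0.974%, 1.5% and 0.762% of the table. The searched motifs may overlap: the second E2F form in Slbp shares bases with the first GC box there.

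The windows of 4 genes are printed because they show the contrast between windows with repeated CCAAT and windows with GC boxes alone. Nudcd2 held 4 copies of CCAAT and Scd2 held 2, with no GC box in either. Slbp held 3 GC boxes and Rap2c held 2, with no CCAAT in either. Capitals mark CCAAT or GGGCGG, or their reverse complements, and each window reads 5′ to 3′ on the gene's strand. The Nudcd2 window lies at chr10:25665269-25665518 on the plus strand, Scd2 at chr1:253118127-253118376 on the plus strand, Slbp at chr14:81295998-81296247 on the plus strand and Rap2c at chrX:135401999-135402248 on the minus strand.
Nudcd2: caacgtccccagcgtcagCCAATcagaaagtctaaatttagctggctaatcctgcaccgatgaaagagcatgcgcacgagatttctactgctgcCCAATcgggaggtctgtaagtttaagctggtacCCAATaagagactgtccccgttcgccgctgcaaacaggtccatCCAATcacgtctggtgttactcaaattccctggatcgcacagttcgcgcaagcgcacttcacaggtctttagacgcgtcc
Scd2: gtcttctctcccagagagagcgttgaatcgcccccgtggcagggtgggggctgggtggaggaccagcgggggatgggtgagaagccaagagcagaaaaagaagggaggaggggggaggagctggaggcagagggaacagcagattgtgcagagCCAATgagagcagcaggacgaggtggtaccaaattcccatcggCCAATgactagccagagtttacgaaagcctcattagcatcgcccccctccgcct
Slbp: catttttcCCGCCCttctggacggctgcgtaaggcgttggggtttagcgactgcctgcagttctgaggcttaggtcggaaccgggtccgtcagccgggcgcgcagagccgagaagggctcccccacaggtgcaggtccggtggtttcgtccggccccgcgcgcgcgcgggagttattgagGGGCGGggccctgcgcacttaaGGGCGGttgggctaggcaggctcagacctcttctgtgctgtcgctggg
Rap2c: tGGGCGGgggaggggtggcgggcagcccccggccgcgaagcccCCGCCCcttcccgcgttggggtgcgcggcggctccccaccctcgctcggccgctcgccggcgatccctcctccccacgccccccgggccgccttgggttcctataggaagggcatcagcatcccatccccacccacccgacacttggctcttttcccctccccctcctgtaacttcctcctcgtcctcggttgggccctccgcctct
The Nudcd2 window had a GC content of 52%, Scd2 60%, Slbp 67.2% and Rap2c 73.6%, beside a median of 58.8% over array genes. A match is a description of the letters and says nothing about binding. Bex3, Tmem255a and Rap2c lie on chromosome X, 3 of the 9, whereas 3.36% of the array's genes with a window do.

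Levels are given as normalized log2 intensity, that is log2(intensity + 16) after quantile normalization between arrays, and changes as differences of group means on that scale, which understates the change of dim probe sets. A brighter probe set cannot be read as a more abundant message, since probe sets bind with different strength. A change was called where limma's Benjamini-Hochberg adjusted p over all 18625 probe sets tested in that region was under 0.05. The dimmest 40% of probe sets in a region were left out. Of the 21 member probe sets, 18 passed this filter in brainstem, 17 in hippocampus and 16 in frontal cortex, and those that passed are brighter by construction. In bulk tissue, fewer cells of a type and less RNA per cell cannot be told apart. Summed marker intensities add the deposited values without quantile normalization, so bright probe sets weigh most. They are on another scale than the calls and can move apart from them.

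The brainstem values that chose the genes are given first, as a description without a test. The rising probe sets were 0.67 to 1.01 higher with levetiracetam than in controls, with a median of 0.88, that is about 1.59-fold to 2.01-fold. Over all probe sets tested in this comparison, 5.17% were called higher, 4.07% were called lower and the median change was -0.00. Every levetiracetam array lay above every control array in 7 of the 9, which 1.67% of all probe sets showed. The rule used this contrast, so nothing is read from these counts. Among genes called higher, ranked by their largest increase, Slbp, Bex3, Tmem255a, Cav2 and Rap2c held ranks 1 to 5, Larp4b rank 9, Nudcd2 rank 10, Scd2 rank 12 and Tma7 rank 23. Rank alone did not set the choice. Acyp2 at 0.82 (rank 6), Myh1 at 0.72 (rank 13) and others ranked above Tma7 without being members. Pik3ca at 0.67 (rank 24) came directly after Tma7.

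Among the RNA-binding and translation members, the rising Slbp probe set (1391387_s_at) ran from 6.40 to 7.44 in the 7 control brainstem arrays (median 7.14). It ran from 7.21 to 7.82 with phenytoin (median 7.44) and from 7.67 to 8.20 with levetiracetam (median 8.10). The 7 levetiracetam arrays lay above all controls, and the phenytoin arrays overlapped both other groups. The levetiracetam minus control difference was 1.01 (SE 0.14). Larp4b (1374879_x_at) ran from 6.95 to 7.61 in controls (median 7.26) and from 7.89 to 8.18 with levetiracetam (median 8.10), a difference of 0.76 (SE 0.12) without overlap. Tma7 (1375246_at), the brightest of the 9, ran from 10.71 to 11.00 in controls (median 10.89) and from 11.36 to 11.73 with levetiracetam (median 11.59), a difference of 0.67 (SE 0.07). Its smallest change thus went with a narrow spread, and its groups did not overlap.

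Among the membrane and lipid members, Cav2 (1390800_a_at) ran from 6.68 to 7.87 in control brainstem (median 7.48) and from 7.82 to 8.36 with levetiracetam (median 8.20), a difference of 0.90 (SE 0.16). The lowest levetiracetam array fell just below the highest control. Scd2 (1388253_at) ran from 6.65 to 7.35 in controls (median 7.13) and from 7.58 to 8.06 with levetiracetam (median 7.87), a difference of 0.75 (SE 0.12) without overlap. Tmem255a (1394295_at) ran from 6.19 to 7.59 in controls (median 7.18) and from 7.76 to 8.14 with levetiracetam (median 7.93), a difference of 0.91 (SE 0.16), again without overlap. Its controls were the most scattered of the 9, with an SD of 0.52 against 0.14 in the treated group.

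Among the signalling and chaperone members, Rap2c (1382210_at) ran from 6.30 to 7.34 in control brainstem (median 6.79) and from 7.47 to 7.85 with levetiracetam (median 7.68), a difference of 0.88 (SE 0.14) without overlap. Bex3 (1385534_at) ran from 7.07 to 7.83 in controls (median 7.39) and from 8.31 to 8.43 with levetiracetam (median 8.39), a difference of 0.93 (SE 0.12). The treated Bex3 arrays were packed within an SD of 0.05, all of them above the controls. Nudcd2 (1372939_at) ran from 5.80 to 6.54 in controls (median 6.09) and from 6.44 to 7.19 with levetiracetam (median 6.97), a difference of 0.75 (SE 0.16). Of the 9 it is the dimmest, and its groups overlapped.

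**Figure D1:**
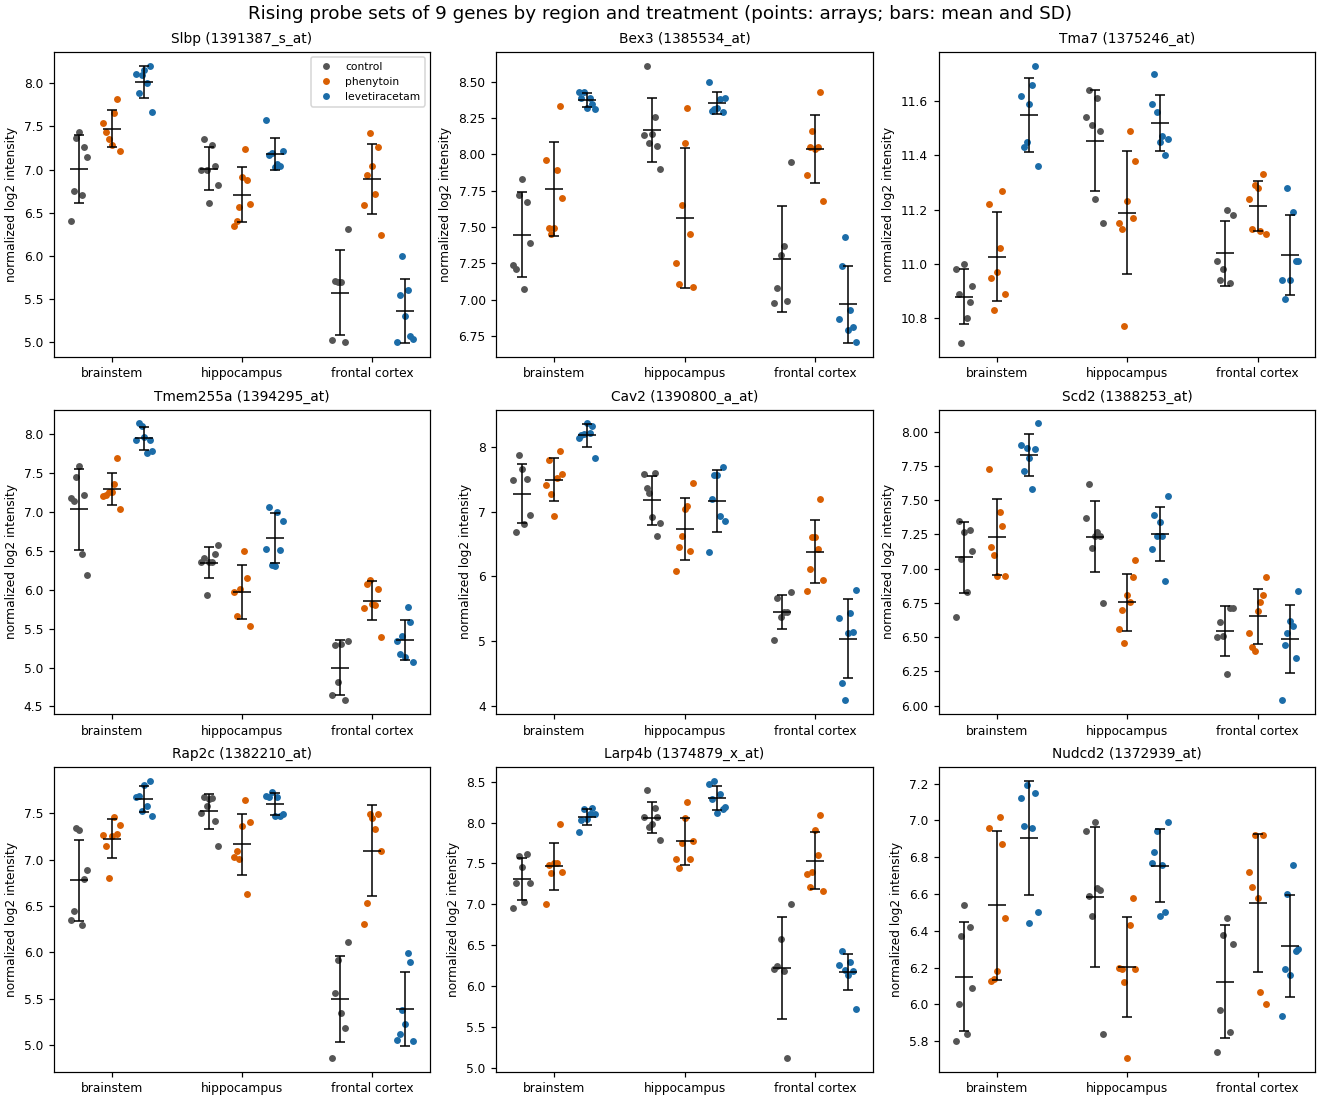
Normalized log2 intensity (y axis) of the rising probe set of each gene in brainstem, hippocampus and frontal cortex (x axis), with 1 point an array, dark grey for control, orange for phenytoin and blue for levetiracetam, and bars for the mean and SD. Blue points mostly stand above grey in brainstem, as the choice of the genes fixed, and orange points mostly stand above grey in frontal cortex for Slbp, Bex3, Cav2, Rap2c and Larp4b.

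Phenytoin minus control in brainstem uses the same control arrays, so it too is a description. The 9 rising probe sets were all above 0, from 0.15 to 0.46 with a median of 0.26, the largest being Slbp at 0.46 (SE 0.14) and Rap2c at 0.45 (SE 0.14). Levetiracetam minus phenytoin, which uses the same levetiracetam arrays, ran from 0.37 for Nudcd2 to 0.68 for Cav2, with a median of 0.60. Without levetiracetam brainstem rats 1 and 2 the levetiracetam minus control differences were 0.68 to 1.01, with a median of 0.87. Slbp stayed at 1.01, and Nudcd2 moved from 0.75 to 0.70.

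The other probe sets of the same genes did not share the size of the rise. Bex3 has a second probe set (1369948_at) that was far brighter and flat in brainstem, with a control median of 10.73 and a levetiracetam median of 10.72, a difference of -0.09 (SE 0.06). The brighter Larp4b probe set (1372783_at) ran from 9.50 to 9.87 in controls and from 9.17 to 9.74 with levetiracetam, a difference of -0.20 (SE 0.09), opposite in sign to its partner. For Scd2 the other 3 probe sets differed by 0.13, 0.20 and 0.48, for Cav2 by 0.08, 0.27 and 0.29, and for Rap2c the second by 0.22. Over the 9 other probe sets past the filter the differences ran from -0.20 to 0.48 with a median of 0.20. The rising probe set is the maximum of its gene by definition, so the gap between them is partly fixed by the choice. Slbp 1393976_at and 1395322_at and Rap2c 1390895_at did not pass the filter in any region. None of the 9 rising probe sets is annotated to a RefSeq messenger RNA, whereas 3 of the 12 others are (1 each of Bex3, Cav2 and Scd2). The share over all probe sets was not counted, so nothing is read from this. The deposited table does not show which stretch of a transcript each probe set covers.

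**Figure D2:**
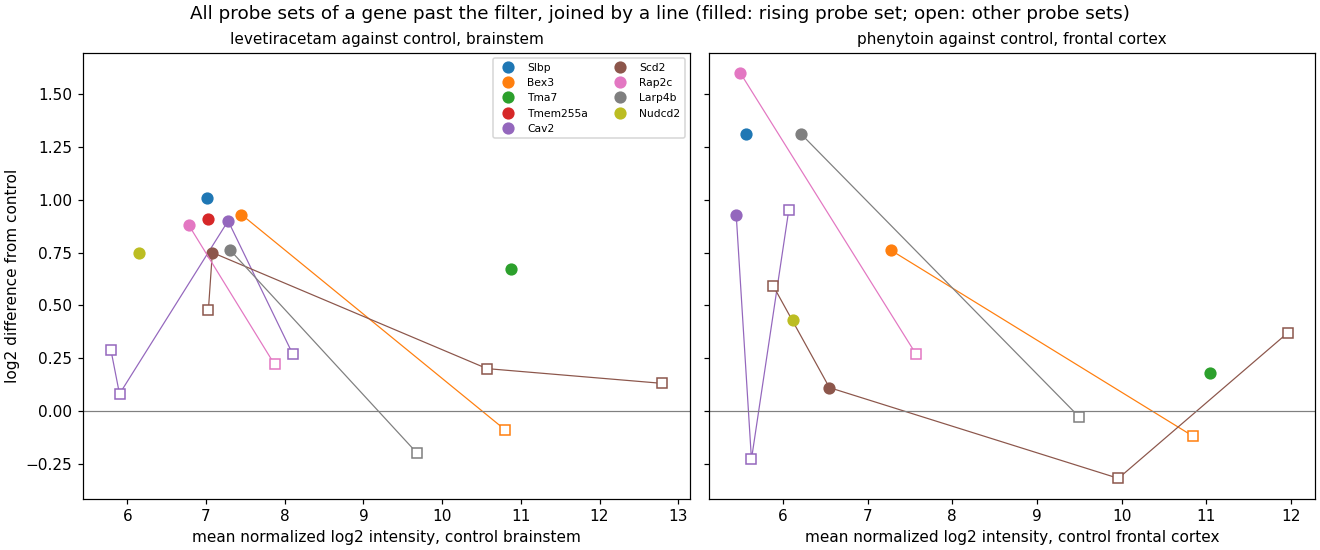
Log2 difference from control (y axis) against the mean normalized log2 intensity in controls (x axis) for levetiracetam in brainstem (left) and phenytoin in frontal cortex (right), with filled circles for rising probe sets, open squares for the other probe sets and lines joining probe sets of 1 gene. The brighter probe sets of Bex3 and Larp4b lie below 0 in both panels while their rising partners lie between 0.76 and 1.31.

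Levetiracetam was also tested against control in the other regions. The choice is stated from brainstem values, but genes with larger rises there, such as Acyp2 at 0.82, were passed over. Whether values of the other regions entered the choice is not known. The absence of calls there is therefore not an independent test. In hippocampus 0 of the 9 rising and 0 of the 8 other probe sets past the filter were called by limma, where 0% of all probe sets were called and 1680 had an unadjusted p under 0.05. The rising probe sets differed by -0.01 to 0.31 with a median of 0.17, beside 0.01 over all probe sets. The largest differences were Tmem255a at 0.31 (95% confidence interval 0.00 to 0.62, limma adjusted p = 0.547) and Larp4b at 0.24 (0.01 to 0.47, adjusted p = 0.544). Slbp ran from 6.61 to 7.35 in control hippocampus (median 6.99) and from 7.03 to 7.57 with levetiracetam (median 7.17). These groups overlapped (difference 0.17, 95% confidence interval -0.10 to 0.44). For Scd2 the interval was -0.22 to 0.26 and for Rap2c -0.17 to 0.32.

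In frontal cortex 0 of the 8 rising and 0 of the 8 other probe sets were called with levetiracetam, where 0% of all probe sets were called by limma and 749 had an unadjusted p under 0.05. The differences ran from -0.41 for Cav2 to 0.20 for Nudcd2, with a median of -0.08 beside 0.00 over all probe sets. Bex3 ran from 6.98 to 7.95 in control cortex (median 7.20) and from 6.71 to 7.43 with levetiracetam (median 6.87), a difference of -0.32 (95% confidence interval -0.63 to -0.00, limma adjusted p = 0.954). Rap2c ran from 4.86 to 6.11 in controls (median 5.45) and from 5.04 to 5.99 with levetiracetam (median 5.23), with an interval of the difference from -0.58 to 0.37. Both genes thus overlapped between the groups. The levetiracetam change did not differ between hippocampus and cortex in any member by limma, where 0% of all probe sets differed. The changes in brainstem exceeded those in hippocampus by 0.53 to 0.91 and those in cortex by 0.55 to 1.31, which is a description because the genes were chosen on the brainstem term. The intervals leave room for small rises outside brainstem, and the name brainstem-selective is not used here for these genes, since the probe sets did not stay level with phenytoin elsewhere.

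**Figure D3:**
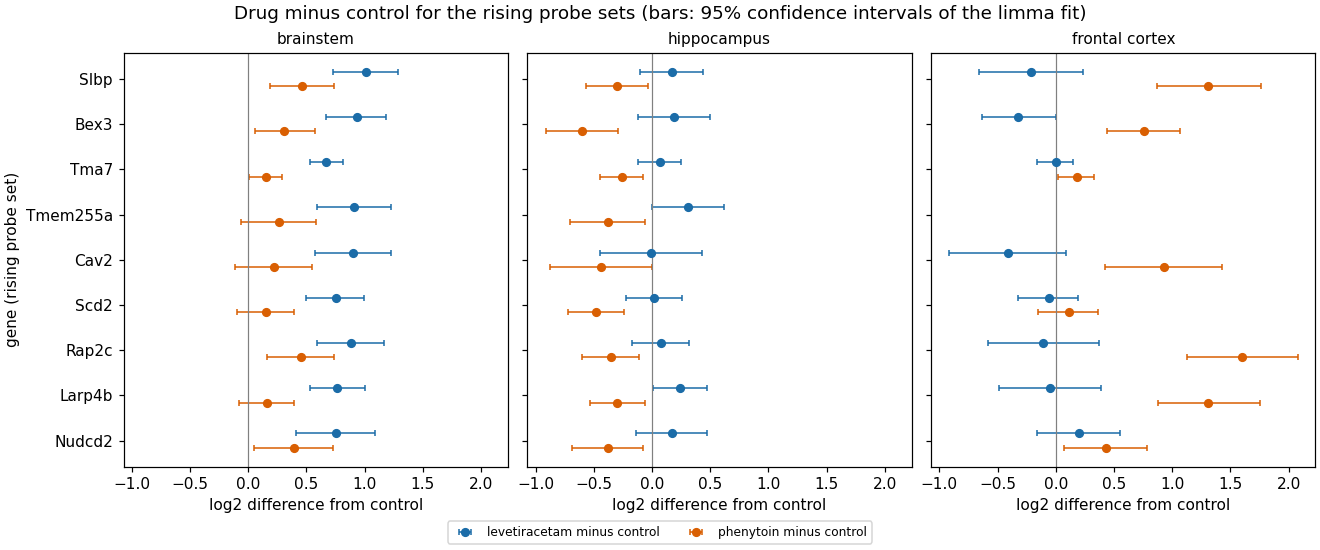
Log2 difference from control (x axis) of the 9 rising probe sets (y axis) in each region, blue for levetiracetam and orange for phenytoin, with 95% confidence intervals of the limma fit. Blue lies to the right in brainstem (0.67 to 1.01), while orange lies left of 0 in hippocampus (-0.60 to -0.26) and right of 0 in frontal cortex (0.11 to 1.60).

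Phenytoin raised 5 of the 8 rising probe sets tested in frontal cortex: those of Rap2c, Slbp, Larp4b, Cav2 and Bex3. Over all probe sets 5.11% were called higher and 1.28% lower. All 8 were above 0, from 0.11 to 1.60 with a median of 0.84, beside -0.03 over all probe sets. Rap2c rose most, from 4.86 to 6.11 in controls (median 5.45) to 6.31 to 7.49 with phenytoin (median 7.33), a difference of 1.60 (SE 0.23, limma adjusted p = 9.76e-05). Its groups did not overlap. Larp4b ran from 5.12 to 7.00 in controls (median 6.23) and from 7.16 to 8.09 with phenytoin (median 7.40), and it rose by 1.31 (SE 0.21, limma adjusted p = 0.000333), again without overlap. Slbp ran from 5.00 to 6.31 in controls (median 5.70) and from 6.24 to 7.42 with phenytoin (median 6.94), and it rose by 1.31 (SE 0.22, limma adjusted p = 0.000402). The Slbp groups overlapped only at their edges.

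Bex3 ran from 7.68 to 8.43 with phenytoin (median 8.05) and rose by 0.76 in cortex (SE 0.15, limma adjusted p = 0.00263), with some overlap with controls. Cav2 ran from 5.02 to 5.76 in control cortex (median 5.45) and from 5.77 to 7.20 with phenytoin (median 6.42), and it rose by 0.93 (SE 0.24, limma adjusted p = 0.022), without overlap. A second Cav2 probe set (1377642_at) rose by 0.95 (SE 0.19, limma adjusted p = 0.00306). This is the only other probe set called in this comparison, and the only gene in which 2 probe sets rose. Nudcd2 at 0.43 (limma adjusted p = 0.154), Tma7 at 0.18 (adjusted p = 0.193) and Scd2 at 0.11 (adjusted p = 0.697) did not pass. Tmem255a was too dim for the filter in cortex. It ran from 4.58 to 5.34 in controls and from 5.39 to 6.13 with phenytoin, without overlap and without a test. Among the tested rising probe sets 3 showed every phenytoin array above every control (Rap2c, Larp4b and Cav2), which 2.49% of all probe sets did. The Cav2 call was lost without phenytoin frontal cortex rat 6 (limma adjusted p = 0.0613) and without control frontal cortex rat 1 (adjusted p = 0.0659). It was also lost with a floor of 1 in place of the 16 added to each intensity (limma adjusted p = 0.233) and with the rat number as a block (adjusted p = 0.0534).

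A beta-actin 3′/5′ measure, the log2 signal of the control probe set near the message's 3′ end minus that near its 5′ end, moved with phenytoin in frontal cortex. It was 1.58 ± 0.14 (SD, n = 7) with phenytoin and 1.32 ± 0.15 (SD, n = 6) in controls (exact permutation test, two-sided, p = 0.0146, adjusted p = 0.0437 over 9 comparisons). With that ratio as a covariate the rising probe sets were 0.09 to 1.49 higher and 4 of 8 were called, Bex3 being lost (limma adjusted p = 0.0587). With the mean of the spike-in controls as a covariate they were 0.03 to 1.37 higher and 4 were called, Cav2 being lost (limma adjusted p = 0.171). Slbp, Larp4b and Rap2c kept their calls under every setting in which they were fitted, with changes of 1.16 to 1.74, 1.11 to 1.58 and 1.37 to 2.11. Of 12 neuron markers 2 were higher with phenytoin in cortex (Nefl by 0.43 and Map2 by 0.66) and 0 lower, and the summed intensity of the 12 ran from 22000 to 24800 with phenytoin and from 22400 to 25900 in controls. The part of these measures in the result was not tested further.

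In hippocampus the same probe sets lay below control with phenytoin. All 9 differences were below 0, from -0.60 to -0.26 with a median of -0.38, beside 0.00 over all probe sets. Bex3 and Scd2 fell, 2 of 9, where 4.69% of all probe sets were called lower and 4.55% higher. Bex3 ran from 7.90 to 8.61 in controls (median 8.13) and from 7.09 to 8.32 with phenytoin (median 7.45), a difference of -0.60 (SE 0.15, limma adjusted p = 0.0156). Scd2 ran from 6.75 to 7.62 in controls (median 7.24) and from 6.46 to 7.06 with phenytoin (median 6.76), a difference of -0.48 (SE 0.12, limma adjusted p = 0.0141). In both genes the groups overlapped. A second Scd2 probe set (1386889_at) fell by 0.41 (SE 0.12, limma adjusted p = 0.0278), the brightest one (1367668_a_at) differed by 0.05 (SE 0.06), and the last (1398016_at) by -0.44 (SE 0.20, adjusted p = 0.161).

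Rap2c at -0.35 (limma adjusted p = 0.0577), Tma7 at -0.26 (adjusted p = 0.0621) and Larp4b at -0.30 (adjusted p = 0.0935) lay near the threshold in hippocampus without passing it. The brighter Larp4b probe set went the other way: it ran from 9.07 to 9.98 in controls (median 9.48) and from 9.71 to 10.23 with phenytoin (median 9.95), and it rose by 0.46 (SE 0.10, limma adjusted p = 0.00897). The hippocampal count depended on single arrays: 4 member probe sets were called with all arrays, 9 without phenytoin hippocampus rat 5 and 7 without control hippocampus rat 7. It also moved with 2 array measures. The spike-in mean was 10.51 ± 0.17 (SD, n = 7) with phenytoin and 10.86 ± 0.32 (SD, n = 7) in controls (exact permutation test, two-sided, p = 0.00583, adjusted p = 0.0262 over 9 comparisons). The Gapdh 3′ to 5′ log2 ratio was 0.39 ± 0.10 with phenytoin and 0.24 ± 0.12 in controls (exact permutation test, p = 0.0227, adjusted p = 0.102, n = 7 each). With either as a covariate 0 member probe sets were called by limma, and the rising probe sets lay between -0.56 and -0.15 with the spike-in mean and between -0.53 and -0.25 with the Gapdh ratio. The Bex3 adjusted p was then 0.16 and 0.251. Over all probe sets the calls of this comparison went from 1721 to 17 with the Gapdh covariate. Of the 12 neuron markers 4 were called higher with phenytoin in hippocampus (Rbfox3, Elavl3, Nefh and Syn1) and 0 lower. On the deposited scale their summed intensity was 20700 to 23300 against 23400 to 24900 in controls. Of 12 oligodendrocyte markers 2 were called higher (Cnp by 0.48 and Sox10 by 0.68).

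One phenytoin hippocampus array, rat 7, stood apart in its marker sums. Its hippocampal markers summed to 772, against 1640 to 2230 on the other 6 phenytoin arrays and 1840 to 2310 in controls, and its cortical markers to 3210, against 1980 to 2320 and 1850 to 2180. Its oligodendrocyte sum was 31300, against 14700 to 18700 and, in controls, 17300 to 20900. The endothelial sum was 5220, against 1980 to 2480 and 1940 to 2370, and the astrocyte sum 33900, against 22700 to 25300 and 24300 to 29300. Without this array 6 member probe sets were called by limma for phenytoin against control in hippocampus, in place of 4. Bex3 then differed by -0.52 (limma adjusted p = 0.019) and Scd2 by -0.53 (adjusted p = 0.0053), and Rap2c (-0.40, adjusted p = 0.0305) and Tma7 (-0.30, adjusted p = 0.0283) newly passed. For levetiracetam against phenytoin 11 were called in place of 10.

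The phenytoin change itself was therefore compared between hippocampus and cortex, in 1 fit of all 9 groups. It was lower in hippocampus in all 9 rising probe sets, by -1.96 to -0.44 with a median of -1.36, where 8.82% of all probe sets were called lower and 5.58% higher. Rap2c differed most (-1.96, SE 0.25, limma adjusted p = 2.38e-08), followed by Slbp (-1.61, SE 0.24, limma adjusted p = 1.21e-06) and Larp4b (-1.61, SE 0.22, limma adjusted p = 2.31e-07). Tma7 differed least (-0.44, SE 0.11, limma adjusted p = 0.00477). Among the 8 other probe sets tested, Cav2 1377642_at (-0.98) and Scd2 1398016_at (-1.03) were lower, Larp4b 1372783_at (0.49, limma adjusted p = 0.0228) was higher, and 5 did not pass. Both Larp4b probe sets therefore differed between the regions, in opposite directions, and the values do not show which of them follows the Larp4b message. Without phenytoin hippocampus rat 7 the 9 rising probe sets differed by -2.00 to -0.47, and all 9 were called by limma. With the rat as a random block across regions all 9 were called as well, at -1.95 to -0.44, and Rap2c 1393050_at (-0.38, limma adjusted p = 0.045) passed in addition. The beta-actin, Gapdh and spike-in measures were not fitted as covariates in this comparison. Tmem255a is among the 9 because this fit filtered on the mean over all arrays, although it was too dim for the cortex filter.

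Between the 2 drugs the genes split by region as well. These comparisons share their phenytoin arrays with those above. In hippocampus 8 of the 9 rising probe sets were higher with levetiracetam than with phenytoin, by 0.33 to 0.79, where 8.76% of all probe sets were called higher and 8.01% lower. Bex3 led with medians of 8.32 and 7.45 (difference 0.79, SE 0.15, limma adjusted p = 0.00119), and Tmem255a followed at 0.69 (SE 0.15, limma adjusted p = 0.00431). Cav2 was the one that did not pass (0.43, limma adjusted p = 0.162). Scd2 1386889_at and Scd2 1398016_at were also higher. With the spike-in mean as a covariate 2 of the 9 were still called by limma, and with the Gapdh ratio 3 of the 9. The spike-in mean was 10.91 ± 0.11 (SD, n = 7) with levetiracetam (exact permutation test against phenytoin, p = 0.000583, adjusted p = 0.00524). Bex3 kept its call in the 11 other settings, with an adjusted p of at most 0.0336.

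In frontal cortex 5 of the 8 rising probe sets (Rap2c, Slbp, Larp4b, Cav2 and Bex3) were lower with levetiracetam than with phenytoin, where 7.09% of all probe sets were called lower and 3.71% higher. The 8 differences ran from -1.71 to -0.17 with a median of -1.21. Rap2c had medians of 5.23 and 7.33 (difference -1.71, SE 0.22, limma adjusted p = 1.52e-05). Every levetiracetam array lay below every phenytoin array in Slbp, Bex3, Rap2c and Larp4b, 4 of 8, which 3.39% of all probe sets showed. Another 3 probe sets were lower too: Cav2 1377642_at (-1.10), Scd2 1367668_a_at (-0.52) and Scd2 1398016_at (-0.83). The 5 calls were kept in every setting in which the probe set was fitted. The beta-actin 3′/5′ measure moved with this comparison too: it was 1.27 ± 0.19 (SD, n = 7) with levetiracetam, beside 1.58 ± 0.14 with phenytoin (exact permutation test, two-sided, p = 0.00932, adjusted p = 0.0437 over 9 comparisons). With it as a covariate the differences ran from -1.58 to -0.07, and 5 of the 8 were called by limma.

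The levels of the genes also differed between the control arrays of the regions, and for cortex, region and array set cannot be told apart. In control rats all 9 rising probe sets were higher in hippocampus than in cortex, by 0.41 to 2.03 with a median of 1.35, where 21.6% of all probe sets were called higher and the median over all was -0.04. Rap2c differed most, with medians of 7.58 and 5.45 (difference 2.03, SE 0.18, limma adjusted p = 9.39e-15), then Larp4b (1.84, SE 0.16, limma adjusted p = 6.45e-15) and Cav2 (1.72, SE 0.23, limma adjusted p = 3.54e-09). Of the 8 other probe sets 3 were higher: Cav2 1377642_at by 1.37, Scd2 1398016_at by 0.86 and Scd2 1367668_a_at by 0.52. The bright probe sets of Bex3 (-0.10), Larp4b (0.03) and Rap2c (0.08) did not differ beyond their spread. The spike-in mean was 10.86 ± 0.32 (SD, n = 7) in control hippocampus and 10.08 ± 0.14 (SD, n = 6) in control frontal cortex. That difference was not tested, and no array measure was fitted as a covariate in this comparison. Tmem255a, too dim for the filter in cortex, was held here by the mean over all arrays. Control brainstem medians stood above hippocampus for Slbp (7.14 and 6.99), Tmem255a (7.18 and 6.36) and Cav2 (7.48 and 7.29), and below it for Bex3 (7.39 and 8.13), Tma7 (10.89 and 11.51), Rap2c (6.79 and 7.58), Larp4b (7.26 and 8.07), Nudcd2 (6.09 and 6.62) and Scd2 (7.13 and 7.24). For Slbp, Cav2 and Scd2 the brainstem and hippocampus controls overlapped widely. With levetiracetam, brainstem Bex3 reached 8.39, beside 8.13 in control hippocampus. The choice of genes used these brainstem arrays and favours low control values, so the brainstem levels are a description.

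Within a group, the rising probe sets varied together from array to array. Deviations from the group means were correlated over the arrays (62, or 61 with Tmem255a) for the 36 pairs of rising probe sets. Of the 36, 35 were positive, with a median Pearson r of 0.35 and a range from -0.03 to 0.79. After Benjamini-Hochberg adjustment over the 36, permuting arrays within groups 100000 times, 22 passed by r and 22 by Spearman's rho, whose median was 0.35. Leaving out the 2 arrays farthest from the median gave a median r of 0.34. The highest pairs were Slbp with Bex3 (0.79), and Larp4b with Slbp and with Bex3 (0.66 each), and the lowest was Scd2 with Tmem255a (-0.03). By region the median was 0.48 in brainstem, 0.33 in hippocampus and 0.42 in cortex. The pooled test includes the brainstem arrays that chose the genes, and no region was tested alone, so the counts that passed are a description. The permutation also treated arrays as independent, whereas same-numbered arrays of 1 treatment correlated across regions (median 0.11, 34 of 61 over 0.1). Over 16734 other probe sets the median r with Slbp was 0.01 and 2.03% exceeded the 0.54 that is Slbp's median with the other 8, and for Scd2 9.98% exceeded its median of 0.21. All values of an array share its RNA, labelling and scan, and the part of these in the correlation was not tested beyond the array measures. Of those, the beta-actin ratio correlated with the 9 at -0.04 to 0.33 with 0 passing after adjustment (permutation test), the Gapdh ratio at -0.29 to 0.06 with 0 passing, and the spike-in mean at -0.18 to 0.42 with 1 passing.

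Probe sets of the same gene were set against each other by the same measure. The rising probe set against the brightest other one of its gene gave r of 0.03 for Bex3, 0.26 for Cav2, 0.16 for Scd2, 0.29 for Rap2c and -0.09 for Larp4b over 62 arrays. With Spearman's rho the values were -0.04, 0.31, 0.22, 0.30 and -0.06. Adjusted over the 5 genes the permutation p of r ran from 0.234 for Cav2 and Rap2c to 0.859 for Bex3, so none passed, and the difference from the pairs of rising probe sets was not tested. Without the 2 farthest arrays r was 0.08, 0.34, 0.16, 0.35 and 0.04.

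**Figure D4:**
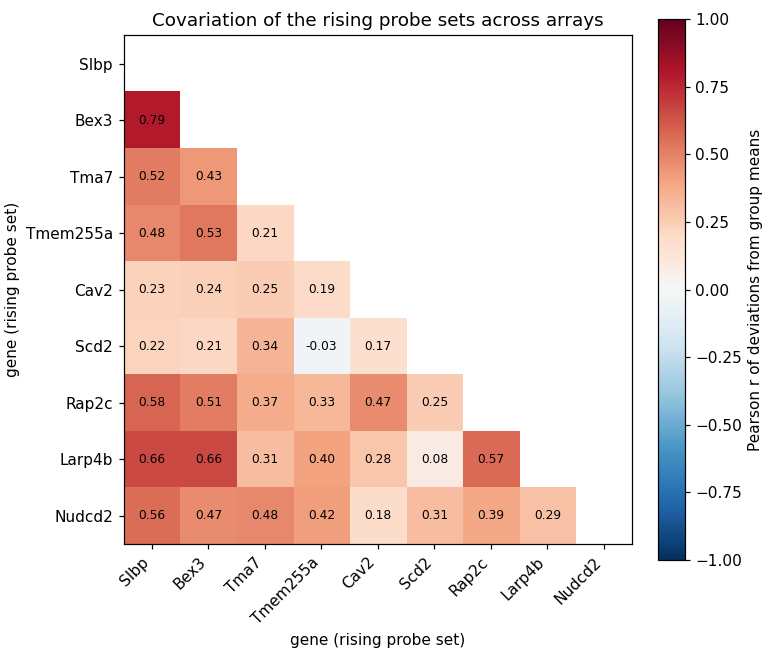
Pearson r of the deviations from group means over arrays for each pair of rising probe sets (both axes: genes), with the value printed in each cell and red for positive r. Slbp, Bex3, Rap2c and Larp4b form the reddest block (0.51 to 0.79), and Scd2 and Cav2 have the palest rows.

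Other genes with a like pattern were sought by the Pearson correlation of the 9 group means, 3 for each member. Cav2 was most like Abhd3 (0.996), Myh1 (0.995) and Smarca5 (0.991). Larp4b was most like Suz12 (0.995), Gabpa (0.995) and Psip1 (0.993). For Slbp these were Acbd5 (0.99), Arhgef10l (0.989) and C9h2orf49 (0.988), and for Rap2c Lsm5 (0.99), Brcc3 (0.99) and Ppp1cb (0.989). Tmem255a was most like Marchf3 (0.99), Rab21 (0.99) and Spart (0.988). The likeness was lower for Tma7 with Trpv5 (0.979), Scd2 with Myl12a (0.972), Bex3 with Ndfip2 (0.968) and Nudcd2 with Ciao2a (0.945). These values were chosen as the highest among all genes past the filter and are a description over 9 points.

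The relatives of each member were taken from lists of related genes, by the brightest probe set of each gene measured on every array. Of 97 such relatives in brainstem, 9 were higher and 9 lower with levetiracetam, beside 5.17% and 4.07% of all probe sets tested, and with levetiracetam 0 of 94 in hippocampus and 0 of 93 in cortex were called by limma. With phenytoin 8 of 94 were higher and 8 lower in hippocampus (4.55% and 4.69% of all), and 5 of 93 were higher and 2 lower in cortex (5.11% and 1.28% of all). Among 15 relatives of Slbp in histone message processing 1 was higher in brainstem, H2ax, a histone variant (0.26, SE 0.08, limma adjusted p = 0.0347), with a list median of 0.03. Casp8ap2, a histone processing factor, differed by 0.31 in brainstem without passing and rose in cortex with phenytoin by 0.64 (limma adjusted p = 0.0128). Among 13 relatives of Tma7 and Larp4b in translation 2 were higher, Larp7 (0.41) and Ssb (0.30), both La-type RNA-binding proteins, and 2 lower, with a median of -0.01. Ssb fell in hippocampus with phenytoin by 0.26 (limma adjusted p = 0.0179).

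Among 20 relatives of Rap2c 2 were higher and 3 lower in brainstem, with a median of -0.04. Rapgef4, a cAMP-regulated exchange factor for RAP GTPases, rose by 0.53 (SE 0.08, limma adjusted p = 0.000238) and, with phenytoin in cortex, by 1.67 (adjusted p = 3.34e-06). Krit1, a RAP1 effector, rose by 0.39 in brainstem, rose by 0.91 with phenytoin in cortex and fell by 0.38 with phenytoin in hippocampus. Sipa1l1, which switches RAP proteins off, fell by 0.42 in brainstem and rose by 0.88 with phenytoin in hippocampus. Rapgef4 and Krit1 were chosen for their brainstem difference, whereas their cortex values were not used in naming them. Among 11 relatives of Bex3 2 were higher and 1 lower in brainstem, from -0.47 to 0.32, with Tceal1 at 0.28 (limma adjusted p = 0.0156). Tceal1 rose by 0.63 with phenytoin in cortex and fell by 0.53 in hippocampus. These 2 values are the extremes of the list, whose medians with phenytoin were 0.01 in cortex and -0.17 in hippocampus over 10 relatives. Among 13 relatives of Nudcd2 2 were higher and 3 lower, with the dynein regulator Pafah1b1 at 0.49 (limma adjusted p = 0.0488). Of 7 caveolar relatives of Cav2 and 17 relatives of Scd2 in fatty acid desaturation and elongation 0 were called in brainstem by limma. Tmem255b, the paralogue of Tmem255a, differed by -0.27 (SE 0.21, limma adjusted p = 0.463). The median over all genes was -0.02 in brainstem, and over the lists it ran from -0.12 to 0.11 apart from Tmem255b.

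Markers of brain cell types were read beside the brainstem values. Of 14 endothelial markers, relevant to Cav2, 0 were higher and 1 lower (Kdr at -0.28), and their summed intensity ran from 3520 to 4250 with levetiracetam and from 3590 to 4570 in controls. Of 12 oligodendrocyte markers, relevant to Scd2, 1 was higher (Mobp at 0.21) and 4 lower (Mag, Sox10, Aspa and Mal), with sums of 35900 to 39400 against 28600 to 37900. Choroid plexus markers varied between arrays within groups, with sums of 208 to 8970 against 189 to 6130, and of the 3 tested 0 were called. Neuron marker sums of deposited intensities ran from 34100 to 38300 against 28700 to 33500, without overlap. On the normalized scale 1 of 12 was called higher (Nefm at 0.33). No marker sum was at 0, and the part of cell makeup in the result was not tested. In brainstem the beta-actin 3′/5′ measure came to 1.50 ± 0.11 (SD, n = 7) in levetiracetam rats and 1.38 ± 0.06 (SD, n = 7) in controls (exact permutation test, p = 0.0268, adjusted p = 0.0603). It was 1.55 ± 0.16 with phenytoin (exact permutation test, p = 0.0111, adjusted p = 0.0437, n = 7). The phenytoin minus control differences of the rising probe sets were 0.15 to 0.46, and -0.04 to 0.51 with this measure as a covariate. The part of the measure in the values of either drug was not tested. The spike-in mean was 10.82 ± 0.21 (SD, n = 7) with levetiracetam and 10.46 ± 0.27 (SD, n = 7) in control brainstem (exact permutation test, two-sided, p = 0.0169, adjusted p = 0.0507). With the beta-actin measure as a covariate the levetiracetam differences were 0.60 to 0.99, and with the spike-in mean 0.59 to 0.99. In control rats 7 of 8 brainstem markers, 4 of 6 hippocampal and 5 of 7 cortical ones were highest in the region of their label.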

How the data were processed

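The deposited series table held 1 intensity value per probe set and array, as the authors processed it. Its software is not given in the sources used here. Per the values, each array had a mean, trimmed by 2% at each end, of 150.0 to 150.1, so the deposited intensities were scaled to a common mean. Array medians ran from 34.05 to 64.05. One phenytoin hippocampus array (rat 4) lacked 4799 values, 3 of them of members, and each fit used the arrays that had a value.

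Values were turned into log2(intensity + 16) and quantile normalized, since array medians on that scale ran from 5.65 to 6.32. The 57 control probe sets and, region by region, the dimmest 40% of the rest were dropped. Differences were fitted per region with limma 3.58.1 in R 4.3.3 over all groups of the region, and differences between regions in 1 fit of all arrays with its own filter of the same kind. P-values were Benjamini-Hochberg adjusted over all probe sets tested, with a threshold of 0.05. The fits were also run on simulated data with independent noise for each probe set and array. That setting lacks the effects shared by an array, and nothing is read from it here. Probe sets were named from the platform annotation, in which 20826 have 1 symbol, 436 several and 9780 none. No arrays held identical values, and the number of arrays limits the precision.

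Named genes were all probe sets of the 9 members, the 3 genes most like each in pattern, and up to 3 genes of each list of related genes. The members and lists were chosen with earlier results of these data known. Rat numbers were checked as a pairing: same-numbered arrays of other treatments in a region had a median correlation of deviations of -0.01, with 9 of 61 over 0.1, so the numbers were not treated as pairs. Same-numbered arrays of 1 treatment in other regions had a median of 0.11, with 34 of 61 over 0.1, against -0.02 for other numbers. The fit across regions treated arrays as independent, and the rat as a random block was an alternative chosen after seeing the data, as was leaving phenytoin hippocampus rat 7 out of that fit.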

Additional observations from a re-analysis of the deposited data

Results flagged for a closer look

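Of 189 groups of arrays checked, 14 held an array far from the others of its group. Chance flags about 1 in 20 groups. Among rising probe sets, Slbp was high in levetiracetam hippocampus rat 1 (7.57, others 7.03 to 7.22) and Tmem255a low in control hippocampus rat 3 (5.93, others 6.36 to 6.57). Cav2 was low in levetiracetam brainstem rat 7 (7.82, others 8.13 to 8.36), and this array is the one that overlapped the controls. Larp4b was low in levetiracetam frontal cortex rat 7 (5.72, others 6.13 to 6.43).

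Among the other probe sets, Cav2 1377642_at was high in phenytoin hippocampus rat 7 (8.21, others 7.04 to 7.45) and low in control hippocampus rat 7 (6.84, others 7.42 to 7.71). Levetiracetam frontal cortex rat 3 was low for Scd2 1367668_a_at (10.97, others 11.81 to 12.07) and for Scd2 1386889_at (8.54, others 9.78 to 10.41). Scd2 1398016_at was low in levetiracetam brainstem rat 4 (6.82, others 7.51 to 7.85) and high in levetiracetam frontal cortex rat 7 (6.44, others 5.27 to 5.76). Larp4b 1372783_at was low in phenytoin brainstem rat 1 (9.10, others 9.52 to 9.79). Probe sets below the filter were Slbp 1393976_at, high in levetiracetam brainstem rat 7 (4.81, others 4.05 to 4.38), Slbp 1395322_at, high in control hippocampus rat 6 (5.18, others 4.15 to 4.55), and Rap2c 1390895_at, low in control hippocampus rat 1 (4.06, others 4.92 to 5.35).

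The phenytoin change differed between hippocampus and frontal cortex by limma's test of the difference in 12 member probe sets. The difference, hippocampus minus cortex, was -1.96 for Rap2c, -1.61 for Slbp, -1.61 for Larp4b, -1.37 for Cav2, -1.36 for Bex3, -1.24 for Tmem255a, -0.81 for Nudcd2, -0.58 for Scd2 and -0.44 for Tma7. Among the other probe sets it was -0.98 for Cav2 1377642_at, -1.03 for Scd2 1398016_at and 0.49 for Larp4b 1372783_at.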

How the results depend on the processing

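Counts are of the 21 member probe sets called by limma. With levetiracetam against control 0 were called in hippocampus and 0 in frontal cortex under every alternative run. For phenytoin against control in hippocampus 4 were called, 7 with array weights, 7 at a threshold of 0.1, 0 with the Gapdh ratio and 0 with the spike-in mean as a covariate, and 3 to 9 with 1 array left out. For phenytoin against control in frontal cortex 6 were called, 10 with array weights, 2 with the dimmest 60% left out, where fewer members were tested, and 5 to 7 with 1 array left out. For levetiracetam against phenytoin in hippocampus 10 were called, 3 with the Gapdh ratio, 2 with the spike-in mean, and 8 to 11 with 1 array left out. In frontal cortex 8 were called, 3 with the dimmest 60% left out and 7 to 10 with 1 array left out. The cause of the other shifts was not tested. The rat number as a block gave 0, 4 and 10 in hippocampus and 0, 5 and 8 in cortex, for levetiracetam against control, phenytoin against control and levetiracetam against phenytoin, and the numbers did not pair the arrays. With the rat as a random block across regions, chosen after seeing the data (consensus correlation 0.06), 12 were called for hippocampus against cortex in controls, as without it. For the phenytoin change between these regions 9 rising probe sets were called with and without this block, and 4 others in place of 3. For the levetiracetam change 0 were called either way. Of 2206 values of single probe sets under an alternative, 2158 were counted as unchanged, 25 newly passed and 22 no longer passed. For a tested comparison, unchanged means that the value stayed on its side of the threshold. The drug minus control values of brainstem have no test and are among the 2206. For them it means the same sign and a move smaller than the SD within groups. To 2 decimals, 17 changed sign. Of these, 16 were levetiracetam minus control in hippocampus or cortex, none of them called and none over 0.11 in size with the main settings. The other was phenytoin minus control in brainstem for Scd2 1388253_at, which went from 0.15 to -0.04 with the beta-actin ratio as a covariate. Dim probe sets, such as Tmem255a in frontal cortex, lie near background and limit what can be read there.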
